A study of Homo sapiens with 14 samples.

Results

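The genes described here are 42 that act in mitosis or in the G2 phase before it. They were named by symbol and chosen by function rather than by a rule on their values, though earlier results of these data were known. All 42 were found among the 61541 genes of the count table, and all 42 passed the filter on low counts that left 18963 genes for testing. The libraries came from Jurkat, a human line of T-cell acute lymphoblastic leukaemia, and polyadenylated RNA was sequenced. Cells were given the solvent DMSO (n = 3) or the KSR inhibitor APS-2-79 (KSRi, n = 3), or carried a non-targeting guide (NT, n = 2), KSR2 guide 1 (n = 3) or KSR2 guide 2 (n = 3). KSR2 is a scaffold protein for RAF and MEK, the kinases upstream of ERK, and APS-2-79 is a small molecule that binds it. The labels call the guide groups a CRISPR knockout in the titles, CRISPR interference in the design text and, for the control, a hairpin in the library name. The sources used here give no dose, no treatment time and no word on whether guide cells were clones or pools. Nothing in the labels shows whether the replicates came from different cultures, and the p-values therefore cover only library-to-library spread, which may be technical.

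Mitotic genes are transcribed in a wave that peaks in G2 and mitosis. Cyclin B with the kinase CDK1 drives entry into mitosis, kinetochores and spindle motors then align and part the chromosomes, the spindle checkpoint holds back the anaphase-promoting complex (APC/C) until every kinetochore is attached, and cytokinesis divides the cell. Many promoters of this wave carry a CHR element (cell cycle genes homology region), where the MuvB core binds. With DREAM, MuvB represses in resting cells, and with B-MYB and FOXM1 it activates in G2. They often also carry CCAAT boxes, which bind NF-Y. In a growing cell line, the level of such transcripts in a bulk library reflects both how many cells are in G2 and mitosis and how much RNA each of them holds, and these cannot be told apart here.

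Library totals ran from 21710466 to 45897075 counts. The KSR2 transcript stood at 29.5 ± 0.786 CPM (counts scaled to a common library size; SD, n = 2) with NT, at 0.541 ± 0.110 (n = 3) with guide 1 and at 0.766 ± 0.0492 (n = 3) with guide 2. In KSRi it was 34.3 ± 1.20 CPM against 37.0 ± 2.23 in DMSO (n = 3 each). All 12 markers of T-lineage leukaemia were above 1 CPM, and their summed level was 3579 to 3643 CPM in DMSO, 3728 to 4245 in KSRi and 4190 to 4373 in the other groups. Of 5 B-cell markers 1 was above 1 CPM, of 5 myeloid and 4 erythroid markers 0 were, and of 5 stromal markers 1 was. These levels moved with the groups. In KSRi against DMSO 5 of the 12 T-lineage markers were called higher, as were both stromal markers tested (median log2 change 1.15), and the stromal sum was 6.12 to 6.70 CPM in DMSO, 9.06 to 13.9 in KSRi and 6.28 to 8.65 in the other groups. The sum of the B-cell list, nearly all CD79A, was 21.8 to 23.1 CPM in DMSO, 23.1 to 25.0 in KSRi and 43.5 to 68.0 in the other groups (CD79A log2 change in NT against DMSO 1.36, called higher). MS4A1, COL1A2 and DCN were under 0.05 CPM and COL3A1 was at 0, and the part of these markers in the results was not tested. KSRi replicate 1 differed from KSRi replicates 2 and 3 with a chi-square per degree of freedom of 35.9 and 49.9. Between KSRi replicates 2 and 3 it was 17.2, and between pairs of the other groups 5.83 to 26.0. KSRi replicates 2 and 3 stood apart from KSRi replicate 1 at the longest and most AT-rich of the 42 transcripts, so results that rest on this are given with and without it below.

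The 42 genes together took 0.754% to 0.775% of all counts in DMSO, 0.731% to 0.784% with NT and the guides, and 0.676%, 0.568% and 0.554% in KSRi replicates 1, 2 and 3. The 3 KSRi libraries were thus below all 11 others. This share sums the counts, so the genes with most counts weigh most. It does not show that the 42 were lower only with KSRi. Their median log2 difference in NT against DMSO was −0.23, against 0.041 for all genes tested. Levels of different genes were compared per kilobase of exon. In DMSO the highest were CDC20, which activates the APC/C, at 143 CPM per kilobase, topoisomerase TOP2A at 139.6, cyclin CCNB1 at 125 and the spindle assembly factor TPX2 at 117. The phosphatase gene CDC25C was low, at 7.49 CPM per kilobase. NUSAP1 and PRC1 were listed near 0, at 0.320 and 0.199 CPM per kilobase. In the gene annotation used here (GENCODE 29, GRCh38), longer protein-coding models on the same strand cover 48050 bases of NUSAP1 and 29440 bases of PRC1. The model over PRC1 (ENSG00000284946) had a mean of 17.6 CPM, and the one over NUSAP1 (ENSG00000285920) was at 0. The treatment of reads shared by such models during counting is not given in any source used here, so the values of NUSAP1 and PRC1 are uncertain.

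The comparison of KSRi with DMSO asked what the inhibitor did to these transcripts. Of the 42 genes 27 fell, 2 rose and 13 did not pass the test (edgeR quasi-likelihood, Benjamini-Hochberg adjusted p under 0.05 over all 18963 genes). The median log2 change of the 42 was −0.30, against 0.024 for all genes tested. Of all genes tested, 18.7% were called lower and 22.0% higher. Among 8099 protein-coding genes with a mean of at least 20 CPM, 26.2% were called lower. In 25 of the 42 genes all 3 KSRi libraries lay below all 3 DMSO libraries, and in 2 all lay above, where 21.9% and 25.0% of all genes did so. By library, 36, 35 and 37 of the 42 genes stood below the DMSO mean in KSRi replicates 1, 2 and 3, with a median log2 difference of −0.26, −0.29 and −0.37. The fall was thus present in every KSRi library and modest in size. With KSRi replicate 1 as the only KSRi library, 19 genes were called lower, of which 15 belonged to the 27, where 12.9% of all genes were called lower. Without KSRi replicate 1, 27 were called lower (21.2% of all genes). In a fit of only the 6 libraries compared, 19 were (17.5%), and the 8 lost were CCNB2, TTK, CENPE, CENPF, NUF2, KIF14, ASPM and PRC1.

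**Figure D1:**
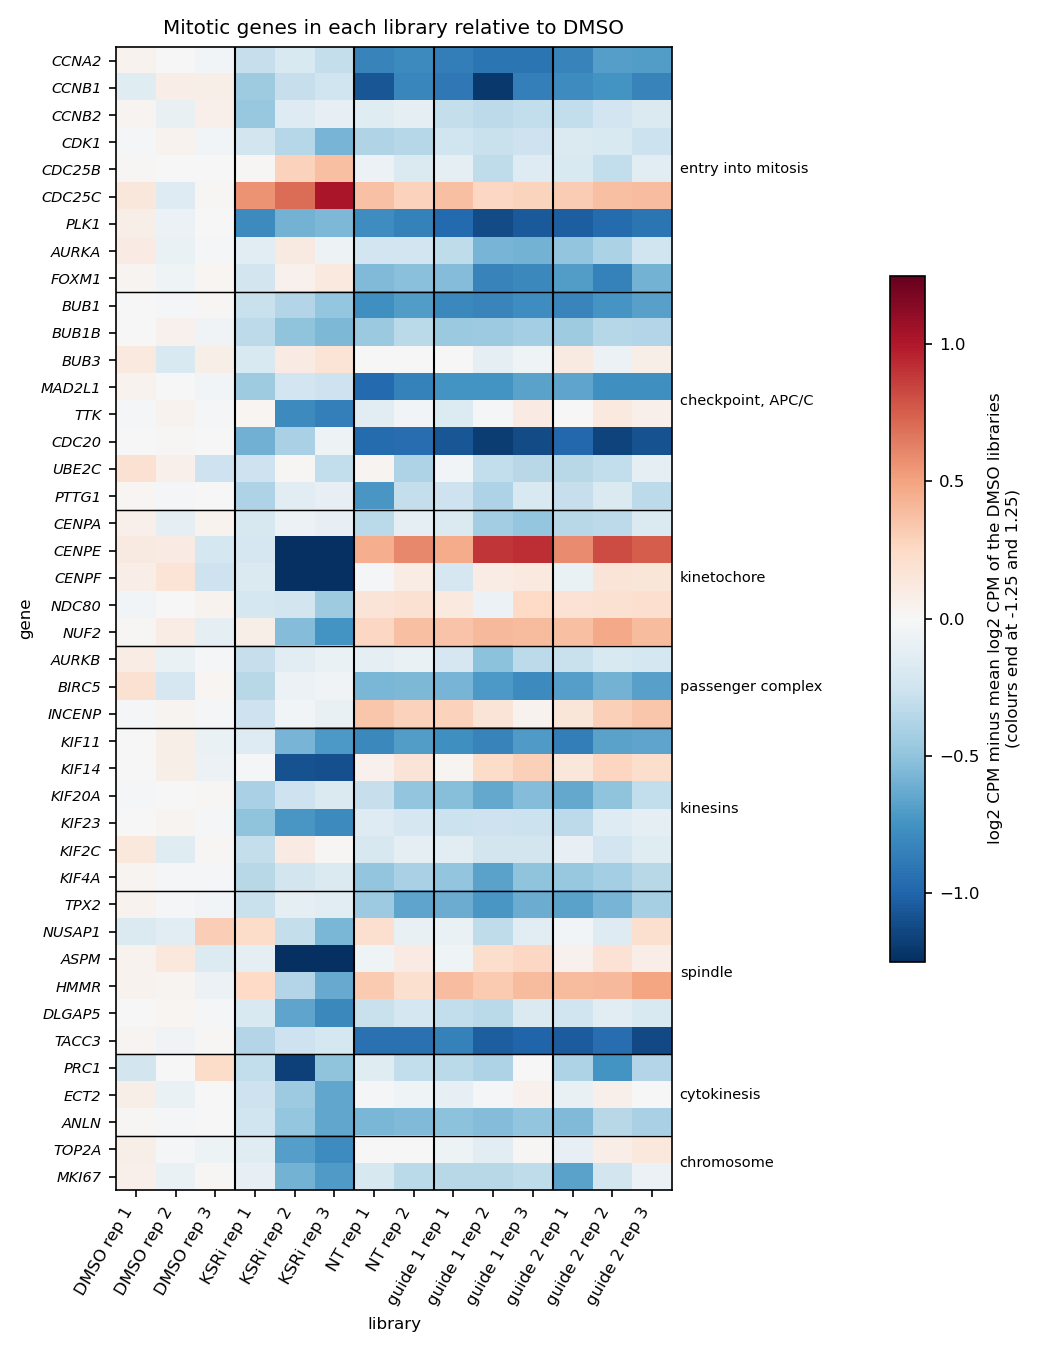
Colours give, for each of the 42 genes (rows, grouped by role) in each of the 14 libraries (columns), the log2 CPM minus the mean log2 CPM of the 3 DMSO libraries. The KSRi columns are mostly blue, KSRi replicates 2 and 3 are darkest at CENPE, CENPF and ASPM, CDC25C is red, and the NT and guide columns share a pattern of their own.

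The share of genes that fell differed between roles, and every role but the chromosomal passenger complex held genes that fell. Genes called lower were 5 of 9 for entry into mitosis, 5 of 8 for the checkpoint and the APC/C, 4 of 5 for the kinetochore, 0 of 3 for the passenger complex, 5 of 6 kinesins, 3 of 6 spindle proteins, 3 of 3 for cytokinesis and 2 of 2 chromosome proteins. With offsets for transcript length and GC content in the fit, an alternative chosen after seeing the data, all 3 genes of the passenger complex were called lower. The 2 genes that rose both encode CDC25 phosphatases, and with these offsets only CDC25C was called higher. These groups are small, and differences between roles were not tested.

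**Figure D2:**
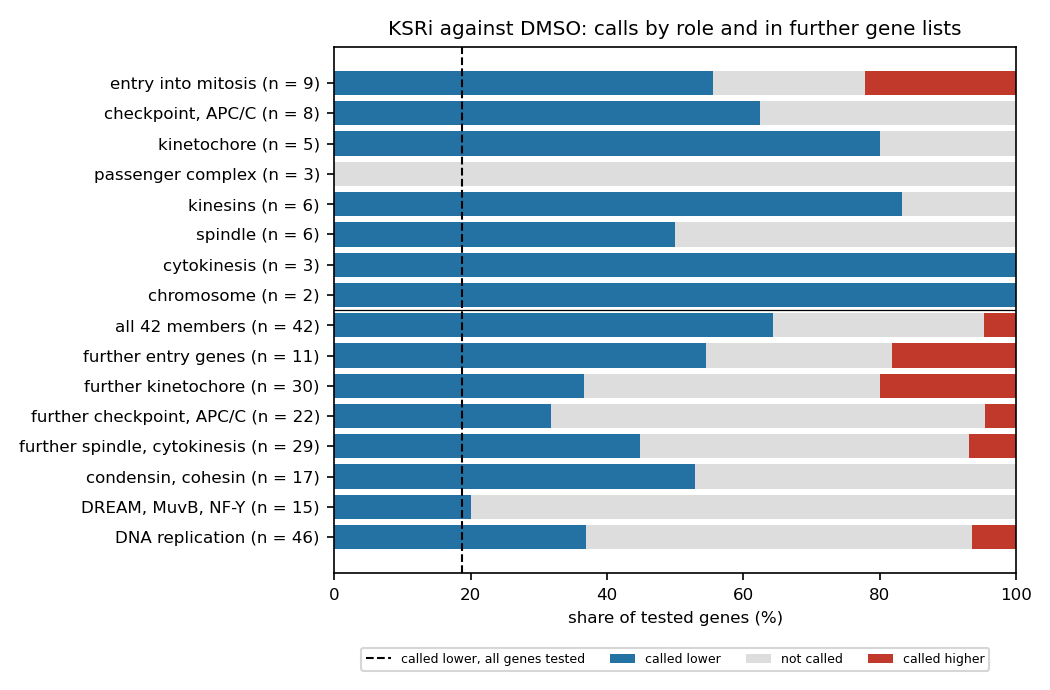
Bars give the share of tested genes (percent) that were called lower (blue), not called (grey) or called higher (red) in KSRi against DMSO, for the 8 roles above the line and for all 42 genes and 7 further lists below it. The dashed line marks the 18.7% called lower among all genes tested, and the passenger complex is the role with 0 called.

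The promoters of the 42 genes were searched for the CHR element and the CCAAT box, as a description with no test. RefSeq promoters (GRCh38.p14, 250 bases before to 50 after the start) were matched for 35 of the 42 genes. AURKA, FOXM1, BUB3, TTK, UBE2C, BIRC5 and TPX2 had none. For the others, and for all genes set beside them, only the first promoter listed for a gene was searched. The CHR letters TTTGAA, on either strand, stood in 24 of the 35 (68.6%), against 15.4% of 27305 promoters. The variant TTCGAA, which reads the same on both strands, stood in 2 (5.71%), against 1.45%. CCAAT, on either strand, stood in 26 (74.3%), against 35.7%, and 21 promoters (60%) held a CCAAT together with TTTGAA or TTCGAA, against 6.58%. In the last 100 bases before the start alone, TTTGAA stood in 13 of the 35 (37.1%) and in 4.64% of all promoters. The members were picked as mitotic genes, for which these motifs are textbook features, and a match of letters is no proof of a bound site. The last 100 bases before the start are shown, 5′ to 3′, for the 4 genes with TTTGAA and the lowest p in KSRi against DMSO, with TTTGAA and CCAAT of either strand in capitals.
PLK1 (chr16:23678789-23678888, plus strand): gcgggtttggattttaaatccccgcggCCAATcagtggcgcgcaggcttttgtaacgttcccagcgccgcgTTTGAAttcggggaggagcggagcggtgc
KIF23 (chr15:69414249-69414348, plus strand): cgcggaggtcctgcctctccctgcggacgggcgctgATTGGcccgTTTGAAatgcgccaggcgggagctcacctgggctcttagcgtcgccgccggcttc
BUB1B (chr15:40160969-40161068, plus strand): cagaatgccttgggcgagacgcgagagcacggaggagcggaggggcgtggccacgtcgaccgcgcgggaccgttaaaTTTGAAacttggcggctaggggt
ANLN (chr7:36389762-36389861, plus strand): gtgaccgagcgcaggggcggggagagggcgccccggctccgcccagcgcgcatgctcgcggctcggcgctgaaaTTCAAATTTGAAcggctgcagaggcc
In PLK1 the TTTGAA starts 29 bases before the start site and the CCAAT 73 before it. In KIF23 TTTGAA starts 55 bases before the site, and the CCAAT lies on the other strand, 64 before it. BUB1B has TTTGAA at 23 bases and no CCAAT in the window. ANLN has TTTGAA on both strands side by side, at 26 and 20 bases. Of the 24 genes with TTTGAA 20 fell with the inhibitor and 0 rose (median log2 change −0.44), and of the 11 without it 6 fell and 2 rose (−0.26). These classes rest on the promoter searched for each gene. CDC25C, which rose, was put among the 11 by a window at its outermost start, and its other starts were not searched. Among all tested genes with a matched promoter, 23.9% of 1165 with TTTGAA and 19.7% of 10587 without it were called lower. The 24 transcripts were also richer in AT, with a median GC content of 40.5% against 48.4% for the 11, and whether the letters or the base composition go with the change was not tested.

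Among the genes of entry into mitosis, the polo-like kinase PLK1 (ENSG00000166851; chromosome 16, 23677656 to 23690367), which activates CDK1 and matures the spindle poles, fell most. It stood at 264, 238 and 252 CPM in DMSO and at 145, 167 and 171 with the inhibitor, so the groups did not overlap. This was a 1.56-fold fall (log2 change −0.64, SE 0.072, edgeR adjusted p = 3.19e-06). CDC25C (ENSG00000158402; chromosome 5, 138285265 to 138338355), a phosphatase that removes the inhibitory phosphates of CDK1, went the other way. It stood at 27.5, 22.3 and 25.2 CPM in DMSO and at 36.8, 40.4 and 50.5 with the inhibitor, a 1.70-fold rise of the group with all 3 libraries above DMSO (log2 change 0.76, SE 0.10, edgeR adjusted p = 2.17e-05). FAM53C lies on the opposite strand and overlaps 6421 bases of CDC25C. The mean of FAM53C was 110.3 CPM in DMSO and 120.1 with the inhibitor, and its part in the counts of CDC25C was not tested. The related phosphatase gene CDC25B changed by 0.24 (SE 0.086), with KSRi replicate 1 at the level of DMSO. Its call was lost without KSRi replicate 2 or 3, without any of the 3 DMSO libraries, without guide 2 replicate 3, with RLE factors and in a fit of the compared groups alone, and its log2 change was 0.027 (adjusted p = 0.747) with the length and GC offsets.

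The cyclins fell less. CCNB1, the B-type cyclin of mitosis, stood at 286, 336 and 335 CPM in DMSO and 234, 260.3 and 267 with the inhibitor, a log2 change of −0.33 (SE 0.10). Its adjusted p was 0.0508 and 0.0518 without DMSO replicate 2 or 3. The S and G2 cyclin CCNA2 changed by −0.26 (SE 0.061), CCNB2 by −0.24 (SE 0.082) and the kinase CDK1 itself by −0.38 (SE 0.075). EXOSC9 lies on the opposite strand and overlaps 578 bases of CCNA2. The mean of EXOSC9 was 165.5 CPM in DMSO and 108.7 with the inhibitor, and its part in the counts of CCNA2 was not tested. The call of CCNB2 was lost without KSRi replicate 1 and without DMSO replicate 1 or 3. FOXM1, the transcription factor of the late cell cycle, showed the least difference of this role, at 257, 242 and 256 CPM in DMSO and 215, 261 and 273 in KSRi. The log2 difference was −0.012, with a 95% interval of −0.21 to 0.19 (edgeR adjusted p = 0.936). With the length and GC offsets FOXM1 was called lower (−0.19, adjusted p = 0.0332). AURKA, the kinase of the spindle poles, differed by −0.028 (interval −0.22 to 0.16).

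**Figure D3:**
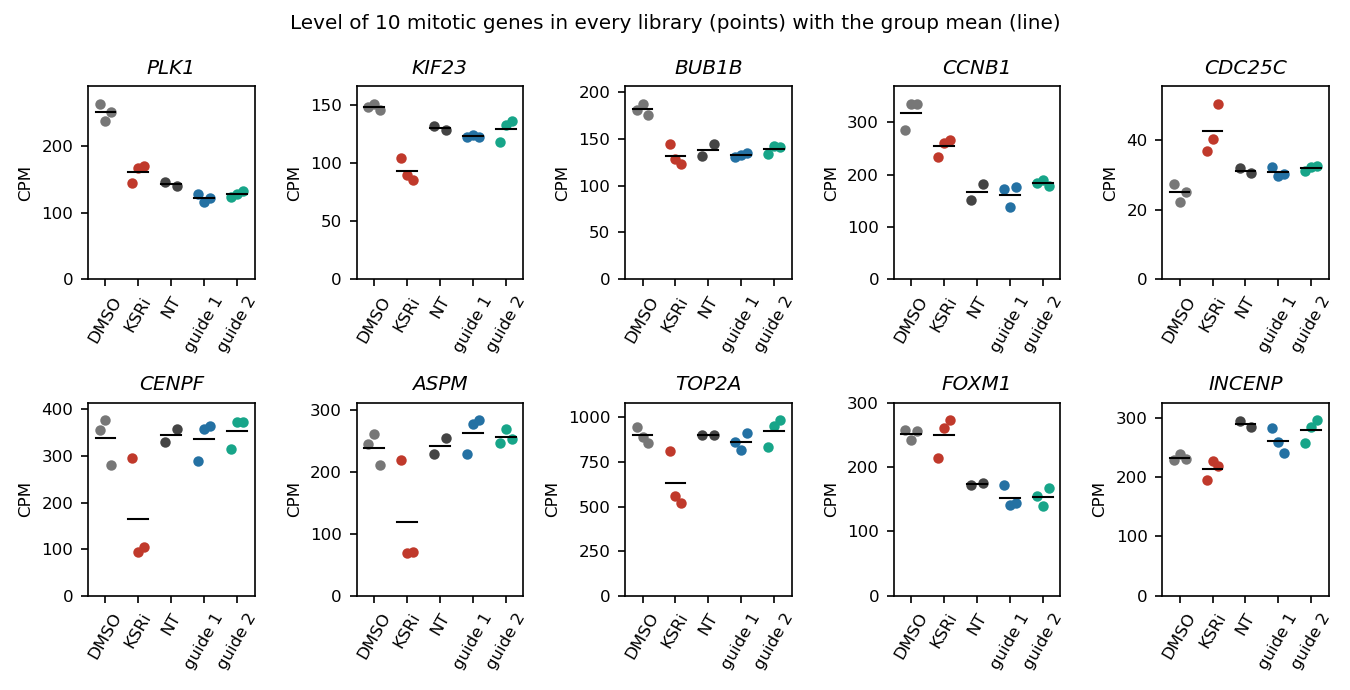
Points give the level in CPM (axis from 0) of 10 mitotic genes in each of the 14 libraries and lines give the group means. PLK1, KIF23 and BUB1B are lower in all 3 KSRi libraries than in DMSO, CENPF and ASPM are low in 2 of the 3, CDC25C is higher, and PLK1, CCNB1 and FOXM1 are lower in NT and in both guide groups than in DMSO.

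The checkpoint genes BUB1B and BUB1 fell in all KSRi libraries. BUB1B (ENSG00000156970; chromosome 15, 40161023 to 40221136), which encodes BUBR1, a subunit of the complex that inhibits the APC/C, stood at 181, 188 and 176 CPM in DMSO and 145, 128 and 123 in KSRi (log2 change −0.46, SE 0.068, edgeR adjusted p = 5.41e-05). BUB1, which recruits checkpoint proteins to kinetochores, went from 337, 333 and 341 CPM in DMSO to 278, 262 and 241 in KSRi (−0.37, SE 0.065, adjusted p = 0.000257). BUB3, the partner of both, showed no such difference, at 346, 279 and 336 CPM in DMSO and 280.1, 342 and 358 in KSRi. Its log2 difference was 0.029, with a 95% interval of −0.17 to 0.23. MAD2L1, which sequesters CDC20, fell by 0.31 on the log2 scale (SE 0.068), and CDC20, the APC/C activator, by 0.34 (SE 0.10). CDC20 was lowest in KSRi replicate 1, at 193, 220.2 and 279 CPM in the 3 KSRi libraries against 291, 294 and 289.9 CPM in DMSO. The kinase TTK did the reverse, at 133, 75.0 and 71.9 CPM in KSRi against 129, 135 and 128 in DMSO. Its log2 change was −0.48 (SE 0.16), and its call was lost without KSRi replicate 2 or 3 and without DMSO replicate 2. The ubiquitin-conjugating enzyme UBE2C (−0.18) and securin, PTTG1 (−0.21), both APC/C pathway genes, did not pass the test.

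At the kinetochore, NDC80 (ENSG00000080986; chromosome 18, 2571511 to 2616635), which binds microtubules, fell moderately in all KSRi libraries. It stood at 75.6, 77.1 and 79.6 CPM in DMSO and 66.3, 66.1 and 57.0 in KSRi (log2 change −0.29, SE 0.08, edgeR adjusted p = 0.00779). CENPE (ENSG00000138778; chromosome 4, 103105806 to 103198409), a kinetochore motor, had the largest fitted change of the 42, but a divided one. It stood at 93.7, 93.3 and 74.4 CPM in DMSO and at 75.1, 23.9 and 26.2 in KSRi, so replicate 1 lay within the DMSO range and replicates 2 and 3 far below it. The log2 change was −1.06 (SE 0.29, edgeR adjusted p = 0.00819). CENPF (ENSG00000117724; chromosome 1, 214603195 to 214664588), a large kinetochore protein, showed the same division, with 356, 377 and 281 CPM in DMSO and 295, 93.4 and 105 in KSRi (−1.04, SE 0.29). With KSRi replicate 1 as the only KSRi library, the log2 difference was −0.21 for CENPE and −0.19 for CENPF (adjusted p = 0.341 and 0.355), and without replicate 1 it was −1.80 and −1.77. NUF2, the partner of NDC80, stood at 96.1, 62.6 and 54.3 CPM in KSRi against 92.3, 97.1 and 84.6 in DMSO. Its call (log2 change −0.36, adjusted p = 0.0475) was lost when any 1 library other than KSRi replicate 1 was left out, and its log2 change was 0.075 with KSRi replicate 1 alone and −0.64 without it. CENPA, the histone of the centromere, differed least, at 47.7, 42.1 and 46.9 CPM in DMSO and 39.5, 43.1 and 42.3 in KSRi (−0.13, interval −0.32 to 0.062). CENPA overlaps SLC35F6 on the same strand, which had a mean of 40.5 CPM.

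The chromosomal passenger complex corrects faulty attachments and later acts in cytokinesis. Its kinase AURKB (ENSG00000178999; chromosome 17, 8204733 to 8210600) stood at 113, 100.3 and 105 CPM in DMSO and 86.5, 95.9 and 99.998 in KSRi, where KSRi replicate 3 nearly reached the lowest DMSO library. The log2 difference was −0.17 (interval −0.34 to −0.004, edgeR adjusted p = 0.0947). Survivin, BIRC5, differed by −0.16 (interval −0.36 to 0.046) and the scaffold INCENP by −0.13 (interval −0.29 to 0.039). With KSRi replicate 1 as the only KSRi library, AURKB and BIRC5 were called lower (−0.29 and −0.36). With the length and GC offsets AURKB (−0.34), BIRC5 (−0.32) and INCENP (−0.34) were all called lower, with adjusted p of 0.000420, 0.00276 and 0.000531. AURKB also passed with library totals and without guide 1 replicate 2, and BIRC5 without DMSO replicate 2.

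Among the kinesins, KIF23 (ENSG00000137807; chromosome 15, 69414246 to 69448427), the motor of the central spindle, had the lowest p. It stood at 148, 151 and 146 CPM in DMSO and at 105, 89.6 and 85.3 in KSRi, a 1.59-fold fall with no overlap (log2 change −0.67, SE 0.075, edgeR adjusted p = 3.38e-06). KIF11, the motor that pushes the spindle poles apart, stood at 249.9, 261 and 235 CPM in DMSO and 223, 166 and 151 in KSRi (−0.47, SE 0.11, adjusted p = 0.00257). KIF2C, which depolymerises microtubules, did not pass the test, at 239, 198 and 221 CPM in DMSO and 178, 236 and 221 in KSRi (−0.053, interval −0.25 to 0.14). It was called lower with the length and GC offsets (−0.20, adjusted p = 0.0407) and with KSRi replicate 1 as the only KSRi library (−0.30, adjusted p = 0.0261). KIF14, a motor of cytokinesis, was divided like CENPE, at 126, 60.4 and 59.8 CPM in KSRi against 128, 135 and 122 in DMSO (−0.64, SE 0.19). Its call was lost without KSRi replicate 2 or 3, and its log2 change was −0.027 with KSRi replicate 1 alone and −1.09 without it. KIF20A changed by −0.28 (SE 0.085) and the chromokinesin KIF4A by −0.25 (SE 0.068).

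Of the spindle proteins, DLGAP5 (ENSG00000126787; chromosome 14, 55148112 to 55191678), which stabilises kinetochore fibres, stood at 135, 137 and 132 CPM in DMSO and 118, 84.9 and 77.1 in KSRi. The difference on the log2 scale was −0.52 (SE 0.11, edgeR adjusted p = 0.00122). TACC3, which cross-links spindle fibres, fell evenly from 344, 327 and 339 CPM in DMSO to 261, 281 and 289.7 in KSRi (−0.28, SE 0.069, adjusted p = 0.00390). ASPM (ENSG00000066279; chromosome 1, 197084128 to 197146694), a protein of the spindle poles, stood at 245, 260.4 and 210.3 CPM in DMSO and 218, 68.2 and 70.9 in KSRi (−0.998, SE 0.30). The adjusted p of ASPM was 0.0622 without KSRi replicate 2 and 0.0509 without replicate 3. Its log2 change was −0.13 (adjusted p = 0.483) with KSRi replicate 1 alone and −1.78 without it. The remaining spindle genes did not pass the test: TPX2 differed by −0.18, HMMR by −0.20 and NUSAP1 by −0.21. TPX2 was called lower with library totals, with the 5 CPM filter, with the offsets and without guide 1 replicate 2 or guide 2 replicate 3. HMMR was split, at 110.2, 71.7 and 59.8 CPM in KSRi against 95.4, 94.5 and 88.1 in DMSO, and its log2 change was 0.25 (adjusted p = 0.0221) with KSRi replicate 1 alone and −0.49 (adjusted p = 2.63e-05) without it. NUSAP1 was listed at 0.796, 0.827 and 1.14 CPM in DMSO and 1.07, 0.731 and 0.591 in KSRi.

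The cytokinesis genes ANLN and ECT2 fell in every KSRi library. ANLN (ENSG00000011426; chromosome 7, 36389806 to 36453791), the scaffold of the contractile ring, stood at 129, 126 and 127 CPM in DMSO and 107, 91.2 and 81.4 in KSRi (log2 change −0.45, SE 0.083, edgeR adjusted p = 0.000408). ECT2, the exchange factor that activates RhoA at the ring, changed by −0.45 (SE 0.085). PRC1, with 0.921, 1.09 and 1.29 CPM in DMSO and 0.873, 0.454 and 0.752 in KSRi, was also called lower (−0.75, SE 0.25), though its call was lost without KSRi replicate 2 or DMSO replicate 3. TOP2A (ENSG00000131747; chromosome 17, 40388516 to 40417950), which untangles chromosomes, stood at 946, 892 and 859 CPM in DMSO and 809.8, 559 and 519.9 in KSRi (−0.51, SE 0.12, edgeR adjusted p = 0.00331). MKI67, which coats mitotic chromosomes and encodes the Ki-67 antigen, changed by −0.44 (SE 0.14), with 555, 394 and 365 CPM in KSRi against 622, 564 and 602 in DMSO. In both genes KSRi replicate 1 was nearest to DMSO. The log2 change of TOP2A was −0.15 (adjusted p = 0.294) with KSRi replicate 1 alone and −0.74 without it, and that of MKI67 was −0.10 (adjusted p = 0.661) and −0.65. The call of MKI67 was lost without KSRi replicate 2 or 3 and without DMSO replicate 1 or 3.

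The division between KSRi libraries went with the length and the base composition of the transcripts, though not at every gene. Across 40 of the genes (without NUSAP1 and PRC1), the correlation of the log2 difference from DMSO with the log2 transcript length was 0.16 in KSRi replicate 1, −0.59 in replicate 2 and −0.54 in replicate 3. The correlation with GC content was −0.33, 0.51 and 0.59. Genes of one library share its depth and preparation, so these are descriptions. Among the 8099 protein-coding genes of at least 20 CPM the correlations with GC content were −0.0072, 0.33 and 0.43, and those with length 0.074, −0.15 and −0.18. For the 12 mitotic genes under 40% GC, the median difference from DMSO was −0.15, −0.62 and −0.77 in KSRi replicates 1, 2 and 3, against −0.028, −0.21 and −0.30 for 1360 genes of that class. For the 6 mitotic genes of at least 7000 bases, it was −0.15, −1.44 and −1.38, against −0.025, −0.083 and −0.10 for 1015 such genes. BUB3, also over 7000 bases, was the exception among the 6, with 280.1, 342 and 358 CPM in KSRi replicates 1, 2 and 3. The same division showed in 3 further genes that were AT-rich but under 7000 bases. These were KIF11 (4860 bases, 38.3% GC), DLGAP5 (2973 bases, 38.4%) and TTK (3010 bases, 36.6%). With KSRi replicate 1 alone and without it, the log2 change was −0.16 and −0.65 for KIF11, −0.19 and −0.73 for DLGAP5 and 0.026 and −0.83 for TTK. The labels give no cause for this division, and none was tested.

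Split at their median GC content of 43.6%, 19 of the 21 genes with lower GC were called lower (median log2 change −0.45), and 8 of the 21 others (−0.18). Among protein-coding genes of at least 20 CPM, 39.6% of the 2707 with lower GC were called lower (median −0.14) and 19.5% of the 5392 others (0.047). With the length and GC offsets, 26 of the 27 genes were again called lower and 34 of the 42 in all, where 24.9% of all genes tested were called lower (median log2 change −0.038). The 8 added were FOXM1, PTTG1, CENPA, AURKB, BIRC5, INCENP, KIF2C and TPX2. The exception, MAD2L1, then had an adjusted p of 0.0643. Of the 27, 17 kept their call under every alternative of scaling, filter, tool, libraries fitted, replicate block and left-out library. Among them were PLK1, KIF23, BUB1B, BUB1, CDK1, CCNA2, KIF11, NDC80, DLGAP5, TACC3, ANLN and ECT2. KIF11, NDC80 and DLGAP5 were not called with KSRi replicate 1 as the only KSRi library.

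**Figure D4:**
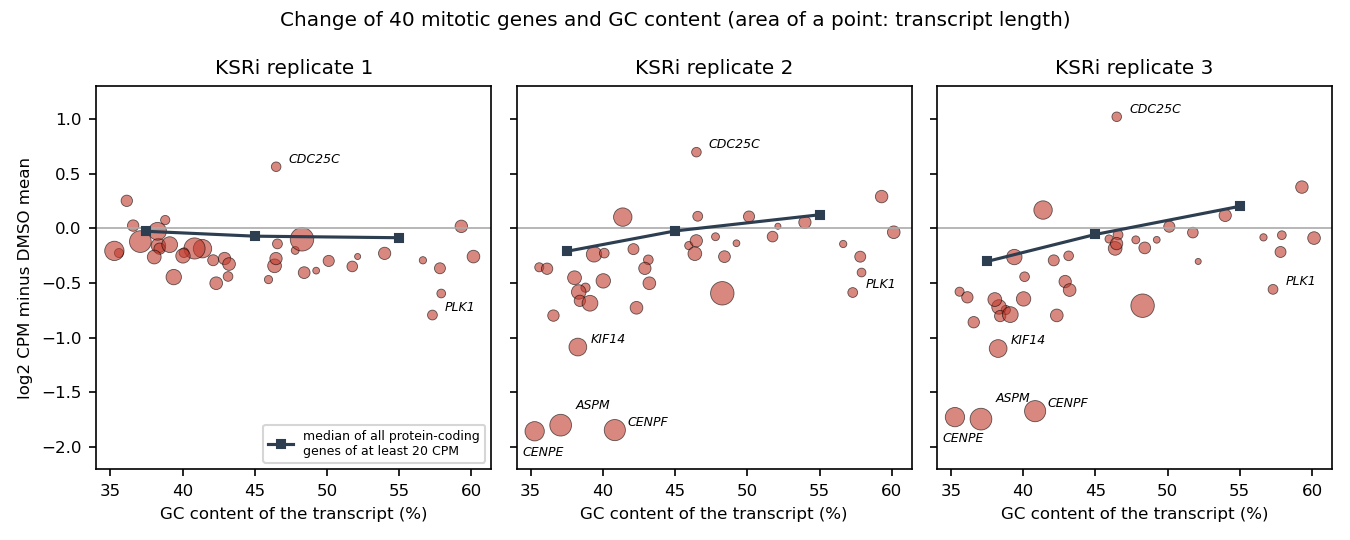
Each panel plots, for 1 KSRi library, the log2 CPM of 40 mitotic genes minus the DMSO mean against the GC content of the transcript in percent, with point area in proportion to transcript length. Squares, drawn near the middle of each class, are medians of all protein-coding genes of at least 20 CPM in 3 GC classes. Long, AT-rich genes such as CENPE, CENPF and ASPM sit lowest in KSRi replicates 2 and 3 and near the others in replicate 1.

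Further genes of the same machinery, from lists that do not contain the 42, were called lower in shares of 20% to 54.5%, against 18.7% of all genes tested and 26.2% of protein-coding genes of at least 20 CPM. With KSRi, 6 of 11 further genes of mitotic entry fell and 2 rose, and the median log2 change was −0.20. The phosphatase gene CDKN3 changed by −0.40 (SE 0.063) and the CDK1-inhibiting kinase gene WEE1 by −0.43 (SE 0.081). Of 30 further kinetochore genes 11 fell and 6 rose (median −0.16), with SKA3, which couples kinetochores to microtubules, at −0.69 (SE 0.068) and CENPI, of the inner kinetochore, at 0.69 (SE 0.067). Of 22 further checkpoint and APC/C genes 7 fell and 1 rose (−0.16), a share of 31.8%. The APC/C inhibitor gene FBXO5 changed by −0.50 (SE 0.057) and the subunit gene ANAPC16 by 0.60 (SE 0.072). Of 29 further spindle and cytokinesis genes 13 fell and 2 rose (−0.21), with ARHGAP11A, a RhoA regulator, at −0.81 (SE 0.10) and KNSTRN, kinastrin, at −0.31 (SE 0.063). Of 17 condensin and cohesin genes 9 fell and 0 rose (−0.29), including NCAPG at −0.54 (SE 0.086) and SMC3 at −0.82 (SE 0.16). Of 15 genes of DREAM, MuvB and NF-Y 3 fell and 0 rose (−0.11), a share of 20% that is near that of all genes, among them E2F5 at −0.63 (SE 0.080) and E2F4 at −0.36 (SE 0.058). DNA replication genes, of the phase before, fell in 17 cases and rose in 3 of 46 (−0.15), with RFC3 at −0.61 (SE 0.092) and POLA1 at −0.47 (SE 0.071). All these shares of genes called lower were below the 27 of 42, but no difference between lists was tested.

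The comparison of the guides with NT asked whether loss of the KSR2 transcript changed the same genes. With both guides 0 of the 42 passed the test in either direction, and 0 did so with guide 1, with guide 2 or between the guides (edgeR quasi-likelihood, and likewise 0 in each with DESeq2 and limma-voom). At an unadjusted p under 0.05 there were 5, 4, 1 and 1 genes. The share of all genes at that threshold is not given here, so these counts are not read as a result about the 42. Of all genes tested 0.0158%, 0.00527%, 0.0105% and 0.00527% were called at an adjusted p under 0.05. The median log2 change of the 42 was −0.024 with both guides, −0.057 with guide 1 and 0.014 with guide 2. For both guides together, the 95% interval of the log2 change lay within −0.5 to 0.5 for 37 of the 42, with a median half-width of 0.20. It reached beyond these bounds for CENPE, CENPF, ASPM, NUSAP1 and PRC1. The intervals are for each gene alone and are not adjusted for the 18963 genes tested. How large a change had to be for a call was not measured on these libraries. It was examined only on simulated counts, whose spread was the same for all genes.

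The 5 genes with an unadjusted p under 0.05 were PLK1, AURKA and AURKB, with lower values, and MAD2L1 and PTTG1, with higher ones. PLK1 stood at 146 and 140.2 CPM with NT, at 128, 116 and 122 with guide 1 and at 123, 129 and 133 with guide 2. The log2 difference of both guides from NT was −0.20 (SE 0.071, edgeR adjusted p = 0.989). MAD2L1 stood at 83.2 and 91.3 CPM with NT, 97.4, 97.5 and 103 with guide 1 and 104, 96.1 and 96.3 with guide 2 (0.18, SE 0.069). The differences were −0.19 for AURKA, −0.18 for AURKB and 0.22 for PTTG1. With an adjusted p of 0.989, none of the 5 is a called change. KIF23 stood at 132 and 128 CPM with NT, 123, 124 and 123 with guide 1 and 118, 133 and 136 with guide 2, and the log2 difference of both guides had an interval of −0.20 to 0.11. For CDC25C the levels were 32.0 and 30.4 CPM with NT, 32.3, 29.7 and 30.1 with guide 1 and 31.0, 32.4 and 32.6 with guide 2 (interval −0.21 to 0.22). For BUB1B the interval was −0.17 to 0.12, for ANLN −0.087 to 0.26, for DLGAP5 −0.22 to 0.24 and for TOP2A −0.27 to 0.25. FOXM1 differed by −0.18 (interval −0.38 to 0.02).

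Whether the inhibitor and the guides differed in effect was tested directly, as the change with KSRi against DMSO minus the mean change of both guides against NT. This difference was below 0 for 15 genes and above 0 for 1 (edgeR, adjusted p under 0.05), with a median over the 42 of −0.34, where 12.1% and 16.6% of all genes tested were called. The strongest calls were KIF23 (−0.62, SE 0.11, adjusted p = 0.000445), CDC25C (0.76, SE 0.14, adjusted p = 0.000992) and MAD2L1 (−0.49, SE 0.10, adjusted p = 0.00133). CDK1 (−0.51), ANLN (−0.54), BUB1B (−0.44) and PLK1 (−0.45) followed. For CENPF (−1.04, SE 0.41) and ASPM (−1.10, SE 0.42) the difference was large but did not pass, though it did without KSRi replicate 1, with the length and GC offsets, with limma-voom and with no filter. The count of genes below 0 fell from 15 to 9 without DMSO replicate 2 and to 7 without NT replicate 1, and was 22 without KSRi replicate 1. CCNB1, CCNA2, BUB1, PTTG1, CENPE, KIF11, DLGAP5 and TOP2A lost their calls without NT replicate 1.

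**Figure D5:**
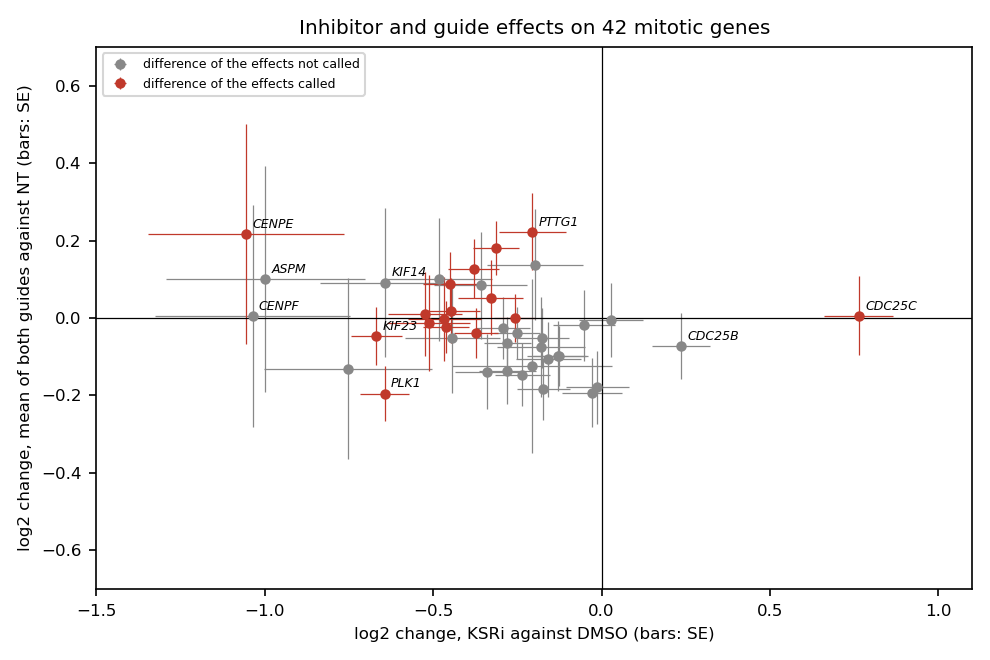
Each of the 42 genes is plotted by its log2 change in KSRi against DMSO (x axis) and in the mean of both guides against NT (y axis, drawn on a wider scale), with bars of 1 SE. Points spread to the left along x and stay near 0 on y, and the 16 genes whose difference of effects was called are red.

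The controls themselves differed at these genes, which sets different starting levels for the inhibitor and the guides. NT and DMSO cells differ in the guide, in the solvent and in whatever else the labels do not give, and these cannot be told apart. The comparison of NT with DMSO uses the same DMSO libraries as that of KSRi, so the values are set side by side only. Of the 42 genes 18 were lower in NT and 2 higher (edgeR, adjusted p under 0.05), where 31.2% and 34.6% of all genes tested were called. The median log2 difference was −0.23. TACC3 stood at 176 and 177 CPM in NT (−0.93 against DMSO, −0.28 in KSRi), CDC20 at 149 and 150.5 (−0.96 and −0.34), CCNB1 at 152 and 181 (−0.94 and −0.33) and MAD2L1 at 83.2 and 91.3 (−0.91 and −0.31). CCNA2 differed by −0.82, PLK1 by −0.81, KIF11 by −0.75 and BUB1 by −0.73. Survivin, BIRC5 (−0.58), ANLN (−0.56), TPX2 (−0.55) and FOXM1 (−0.54) were also lower in NT. FOXM1 stood at 172 and 175 CPM in NT, below every DMSO and KSRi library.

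Other genes did not follow. CENPF stood at 331 and 358 CPM in NT, ASPM at 229 and 255 and TOP2A at 899.5 and 901, all within or near the DMSO range. INCENP, at 295 and 284 CPM in NT against 229, 239 and 231 in DMSO, was higher (0.31, SE 0.086, edgeR adjusted p = 0.00401), as was CDC25C (0.32, SE 0.11, adjusted p = 0.0202). The call of CDC25C was lost without DMSO replicate 2 or either NT library, and that of INCENP with the length and GC offsets (0.17, adjusted p = 0.0546). The NT comparison moved with the scaling. The median difference of all genes tested was 0.041 with TMM factors, 0.26 with upper-quartile factors and 0.31 with library totals. The median of the 42 was −0.23, −0.017 and 0.039, with 18, 14 and 13 genes lower and 2, 5 and 7 higher. Of all 18963 genes tested, 5909, 4187 and 3767 were called lower and 6568, 8283 and 8759 higher, so the counts of all genes moved the same way. Relative to all genes, the 42 were lower under each scaling. Scaling shifts all genes nearly alike, so this could not have come out otherwise and is no separate test. Of the genes named, BUB1B (−0.40) and CDK1 (−0.37) lost their call under both other scalings. In the same comparison 40 of 46 DNA replication genes were lower in NT and 1 higher (median −0.87).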

How the data were processed

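Polyadenylated RNA of 14 Jurkat libraries in 5 groups was sequenced. The authors deposited raw counts, whole numbers for each Ensembl gene, and per the submitters' processing notes used STAR 2.7.11b, DESeq2 1.42.1 and GRCh38. Which program counted the reads, with which strand setting and annotation, is not given in the sources consulted, and this bears on overlapping and antisense genes. Symbols were found for 61369 of 61541 identifiers, 25747 genes had 0 counts, and positions are those of GENCODE 29.

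The test was that of edgeR 4.0.16 (R 4.3.3, TMM factors, filterByExpr, quasi-likelihood F test, 1 mean per group over all 14 libraries, Benjamini-Hochberg over 18963 genes, threshold 0.05). Each library kept 99.93% or more of its counts through the filter. The common biological coefficient of variation was 8.6%. CPM uses TMM-scaled library sizes, log2 CPM a prior count of 2. Errors are SDs, standard errors or 95% intervals. Library totals were 21710466 to 45897075 counts. The procedure was also run on simulated counts, with changes planted in 200 genes for KSRi against DMSO and likewise for both guides against NT. Their recovery is not reported here. The simulated counts had a common spread for all genes and no division between replicates. That run therefore does not bear on the genes divided between KSRi libraries. No replicate pair was as close as counting error alone would give, so all were kept. The standard errors hold spread between libraries as well as counting error.

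The members, roles and further lists were chosen with earlier results of these data known. Named in full are, in roles of at least 5 genes, the 2 with the lowest and the 1 with the highest p in KSRi against DMSO, in smaller roles the lowest, and from each further list 2 genes with the lowest p. CENPF, ASPM, KIF14 and other genes given by library beyond these were picked after their values were seen. Transcript length and GC content are of the principal GENCODE transcript and were available for 96.8% of tested genes. Alternatives were RLE, upper-quartile and total scaling, no filter, a minimum of 5 CPM in at least 3 libraries, limma-voom (limma 3.58.1), DESeq2 1.42.0, fitting the compared groups alone, a replicate block, each library left out, and an adjusted p under 0.01. Length and GC offsets, and KSRi replicate 1 as the only KSRi library, were added after seeing the data.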

Additional observations from a re-analysis of the deposited data

Results flagged for a closer look

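For 16 of the 42 genes the inhibitor effect and the guide effect differed by the test of the difference itself (edgeR, adjusted p under 0.05). Among all genes tested, the shares called were 12.1% below 0 and 16.6% above 0. In log2 units, the inhibitor effect minus the guide effect was −0.26 for CCNA2, −0.38 for CCNB1, −0.51 for CDK1, −0.45 for PLK1 and 0.76 for CDC25C among the genes of mitotic entry. It was −0.33 for BUB1, −0.44 for BUB1B, −0.49 for MAD2L1 and −0.43 for PTTG1 among checkpoint and APC/C genes. It was −1.27 for CENPE, −0.46 for KIF11, −0.62 for KIF23 and −0.53 for DLGAP5 among kinetochore and spindle genes. For cytokinesis and the chromosomes it was −0.46 for ECT2, −0.54 for ANLN and −0.50 for TOP2A. The calls of BUB1, CENPE, KIF11, DLGAP5, ECT2 and TOP2A were lost with KSRi replicate 1 as the only KSRi library. Without NT replicate 1 those of CCNA2, CCNB1, BUB1, PTTG1, CENPE, KIF11, DLGAP5 and TOP2A were lost, with adjusted p from 0.0801 for BUB1 to 0.272 for CCNB1. CCNA2, CCNB1 and TOP2A also lost theirs with a replicate block, and CCNA2 and CCNB1 with length and GC offsets. CDK1, PLK1, CDC25C, BUB1B, MAD2L1, KIF23 and ANLN kept theirs under every alternative run. The inhibitor and the guides start from controls that themselves differ at 20 of these 42 genes. Of all genes tested, 31.2% were lower in NT than in DMSO and 34.6% higher, so such differences were not particular to the 42. The part of the control difference in the differences of effect was not tested.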

How the results depend on the processing

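For KSRi against DMSO, the 27 genes called lower became 17 at an adjusted p under 0.01 and 21 to 28 with 1 library left out, and the 2 called higher became 1 with RLE factors, with only the groups compared, with length and GC offsets and at 0.01, and 1 to 2 with 1 library left out. Over all genes, 3537 of 18963 were called lower in the fit used above. With 1 library left out this ran from 2759 of 18892 to 4016 of 18978. Those called higher were 4175 of 18963 in the fit used above, 4006 with RLE factors and 3642 with the offsets. They were 3307 of 16167 with only the groups compared, and 3433 of 18918 to 4912 of 18978 with 1 library left out. The median of the 42 was −0.25 with KSRi replicate 1 as the only KSRi library. For NT against DMSO, the 2 genes called higher became 5 with upper-quartile factors, 7 with library totals, 5 with no filter, 4 with the 5 CPM filter, 6 with only the groups compared, 6 with KSRi replicate 1 as the only KSRi library, 1 at 0.01 and 1 to 5 with 1 library left out. Over all genes, 6568 of 18963 were called higher in NT in the fit used above, 8283 with upper-quartile factors and 8759 with library totals. They were 7220 of 35794 with no filter, 4223 of 11600 with the 5 CPM filter and 6779 of 17689 with only the groups compared. The median of the 42 was −0.017, 0.039, −0.094 and −0.28 with upper-quartile factors, library totals, the 5 CPM filter and the offsets. For the inhibitor effect minus the guide effect, the 15 genes below 0 became 7 at 0.01 and 7 to 22 with 1 library left out, the 1 above 0 became 2 with library totals and 1 to 2 with 1 library left out, and the median was −0.29 with the offsets, −0.22 with KSRi replicate 1 alone and −0.36 to −0.28 with 1 library left out. Counts over all genes are not given here at 0.01 or, under these alternatives, for the difference of effects, so those member counts have no background beside them. The cause was not tested. The guide comparisons stayed at 0 calls under these alternatives.

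Some genes changed sign, most of them near 0 and not called. With KSRi replicate 1 as the only KSRi library the log2 change was −0.19 for BUB3, 0.026 for TTK, 0.075 for NUF2, 0.19 for NUSAP1 and 0.25 for HMMR. With 1 library left out it ran from −0.10 to 0.029 for AURKA, from −0.080 to 0.086 for FOXM1, from −0.063 to 0.13 for BUB3, from −0.14 to 0.059 for KIF2C and from −0.46 to 0.0050 for NUSAP1.

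The replicate numbers were not taken as pairs. Deviations of same-numbered DMSO and KSRi libraries correlated at −0.21, −0.11 and 0.059, those of NT with guide 1 at 0.24 and 0.17, those of NT with guide 2 at −0.0015 and 0.13, and those of the guides at −0.0013, 0.081 and −0.057. With the number as a block, 27 genes were called lower and 2 higher for KSRi, 17 lower and 2 higher for NT, and 12 below and 1 above 0 for the difference of effects. Of all 18963 genes tested, 3285 were then called lower and 3932 higher for KSRi, and 5638 lower and 6320 higher for NT. Spread between libraries exceeded counting error in every group, and NT has only 2 libraries.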
